A study of Mus musculus with 8 samples.

Results

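The collagen gene family was followed across a mouse epicardial cell line in which Hdac3 had been targeted. Its members were taken by name and gene type: every protein-coding gene of the deposited count table whose symbol has the form Col, a number, a and a number. That rule gave 44 genes of 35275, and no measured value entered it, though the family was chosen with earlier results of these data known. By the protein each chain builds, 11 are fibrillar, 6 belong to the type IV collagens of basement membranes, 9 are FACIT collagens, which decorate fibrils, and 18 fall in other classes.

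Collagen chains carry long glycine-rich repeats and wind together into triple helices inside the endoplasmic reticulum, so a cell must supply the chains of one molecule in matched amounts. Fibrillar collagens assemble into the tension-bearing fibrils of connective tissue, type IV collagens form the sheet-like network under epithelia, and type VI collagens form beaded filaments at the cell surface. The epicardium is the mesothelial layer that covers the heart. Cells that leave it become fibroblasts of the heart wall, which are known as the main source of fibrillar collagen there.

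The KO group holds 4 libraries from cells transduced with lentivirus for CRISPR/Cas9 and a guide against Hdac3, the histone deacetylase of the NCoR and SMRT corepressor complexes. The EV group holds 4 libraries from the same line given the empty lentiviral vector. All cells were the mouse epicardial line (named MEC, and MCEC in another label), grown on dishes in high-glucose medium with fetal bovine serum. No clone, passage or separate culture is named, so p-values below measure only the spread between these libraries. For KO replicate 1 the labels conflict: it is a knockout by its title but an empty-vector sample by its listed characteristics. Titles set the groups here.

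The libraries held 18063745 to 24564892 counts, and 3 counts corresponded to 0.122 to 0.166 CPM (counts relative to library size, scaled to a common composition). The targeted gene itself stood at 63.2, 56.9, 63.9 and 62.6 CPM in KO replicates 1 to 4, against 60.3, 61.4, 64.0 and 61.7 CPM in EV replicates 1 to 4. The groups overlapped (log2 fold change −0.005, edgeR adjusted p = 0.956), and a Cas9 edit need not lower a transcript, so its level does not check the labels. Of 12 epicardial and mesothelial markers, 11 were measurable, and their summed level was 4846 to 5006 CPM in KO and 4735 to 5010 CPM in EV. Within that list Wt1, Tcf21 and Upk3b were lower and Msln, Krt8, Krt18 and Krt19 higher in KO. Markers of other cell types also differed. Endothelial markers summed to 18.8 to 20.8 CPM in KO and 24.7 to 28.4 CPM in EV, without overlap: Kdr was lower and Tek higher, while Pecam1, Cdh5 and Tie1 had at most 6 counts in any library. Cardiomyocyte markers summed to 111 to 127 CPM in KO and 144 to 155 CPM in EV, also without overlap. Of the 3 tested, Tnnt2 was lower and 0 were called higher, yet their median log2 fold change was 1.19, so the list did not fall as a whole. Nppa was at 0. Smooth muscle markers summed to 864 to 1059 CPM in KO and 902 to 1114 CPM in EV, with Tagln and Cnn1 lower and Acta2 not past the test. Macrophage markers summed to 30.9 to 37.0 CPM in KO and 30.6 to 37.2 CPM in EV, with Cd68 higher, Cd14 lower, Emr1 at 0 and at most 1 count of Ptprc. The part of these markers in the collagen results was not tested. Liver markers summed to 14.3, 23.1, 20.7 and 10.6 CPM in KO replicates 1 to 4 and to 4.81 to 6.90 CPM in EV, so results are also given without KO replicates 2 and 3, which held the most.

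Collagen genes filled a large share of the transcriptome in both groups, and a larger one in KO. Together the 44 genes took 4.27, 4.43, 4.22 and 4.37% of all counts in KO replicates 1 to 4, against 3.73, 3.52, 3.65 and 3.50% in EV replicates 1 to 4. The lowest KO library lay above the highest EV library. Most of this was fibrillar: that class held 3.43 ± 0.0702% of counts in KO and 2.78 ± 0.0929% in EV (SD, n = 4 each), with no overlap. Col1a1, Col1a2 and Col3a1 alone accounted for 3.13 ± 0.0592% of counts in KO and 2.45 ± 0.0873% in EV. The other fibrillar genes went the opposite way as a sum, at 0.294 ± 0.0148% in KO and 0.328 ± 0.00766% in EV, and did not overlap on this scale. After composition scaling that last sum did overlap, at 2807 to 3145 CPM in KO and 3130 to 3345 CPM in EV.

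The remaining classes were smaller. Type IV genes held 0.541 ± 0.0364% of counts in KO and 0.504 ± 0.0195% in EV, and these ranges overlapped. On the scaled CPM they ran from 5244 to 6000 in KO and from 4656 to 5126 in EV, without overlap. FACIT genes held 0.0535 ± 0.00243% in KO and 0.0561 ± 0.00136% in EV, with overlap on either scale. The other classes together held 0.298 ± 0.00849% in KO and 0.261 ± 0.00686% in EV, without overlap, and type VI chains made up most of that. Per length of transcript (FPKM, counts divided by gene length and library size), fibrillar genes were 79.5 ± 0.773% of all collagen signal in KO and 77.4 ± 0.350% in EV.

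**Figure D1:**
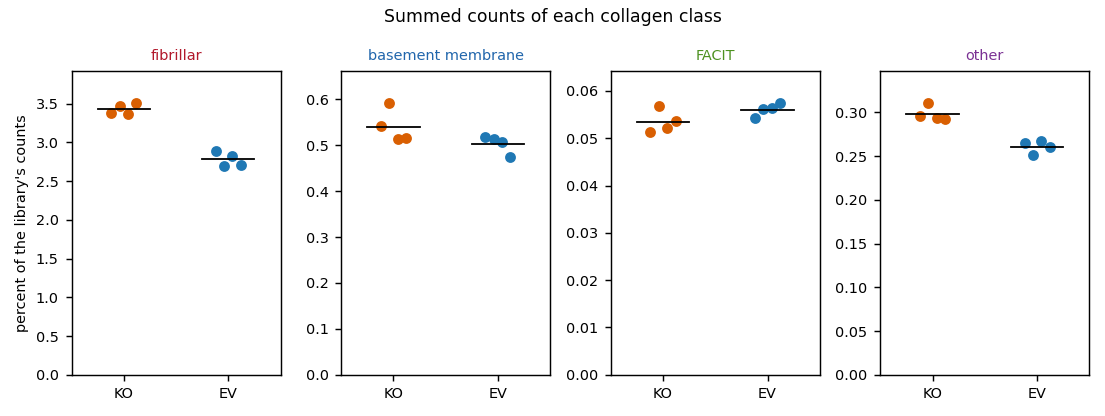
Summed counts of each collagen class as a percent of the library's counts, with 1 point per library, KO left of EV, and a line at the group mean; each panel starts at 0 and has its own scale. The fibrillar class and the other classes do not overlap between KO and EV, while the basement membrane and FACIT classes do.

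Gene by gene, 30 of the 44 members passed the filter on low counts and were tested, and 14 did not. In edgeR's quasi-likelihood test with Benjamini-Hochberg adjustment over all 12801 genes tested, 17 of the 30 passed an adjusted p of 0.05. That is 56.7%, against 26.0% of all genes tested. The calls ran both ways, with 9 members higher in KO (12.6% of all genes were higher) and 8 lower (13.4% of all genes were lower). Among the 15 members with a mean of at least 10 FPKM, a split chosen after the values were seen, 8 were higher and 2 lower. That is 66.7% called, against 31.1% of the 5866 genes at that level. Among the 15 tested members below it, 1 was higher and 6 were lower (1 and 5 of 14 without Col17a1), or 46.7% called, against 21.6% of the 6935 genes below that level (7.96% higher and 13.6% lower).

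By class the counts were as follows, and no test compared the classes. Of the 9 fibrillar genes tested, 4 were higher and 3 lower. Of the 5 type IV genes, 3 were higher and none lower in edgeR, DESeq2 or limma-voom. None of the 4 FACIT genes passed in any of those tests, and 0 had an unadjusted p under 0.05 in edgeR. Of the 12 genes in other classes, 2 were higher and 5 lower. One of those 5, Col17a1, passed the filter through its EV libraries alone, and without it the counts were 2 higher and 4 lower of 11 in other classes, and 9 higher and 7 lower of 29 in the family. The median log2 fold change was 0.27 for fibrillar, 0.18 for type IV, 0.13 for FACIT and −0.28 for other classes (−0.01 without Col17a1), beside 0.09 for all tested collagens and 0.005 for all genes tested. Counts without Col17a1 still hold Col6a4 and Col11a2, each helped past the filter by the group where it is higher. The minimum was reached by 2 KO and 4 EV libraries for Col6a4, and by 4 KO and 3 EV libraries for Col11a2. Without KO replicate 1, whose label is in conflict, 10 collagens were higher and 6 lower. Without EV replicate 2, 9 were higher and 4 lower, and without KO replicate 3, 10 were higher and 5 lower. Without KO replicates 2 and 3 together, 7 were higher and 4 lower, and 1974 of all genes passed.

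**Figure D2:**
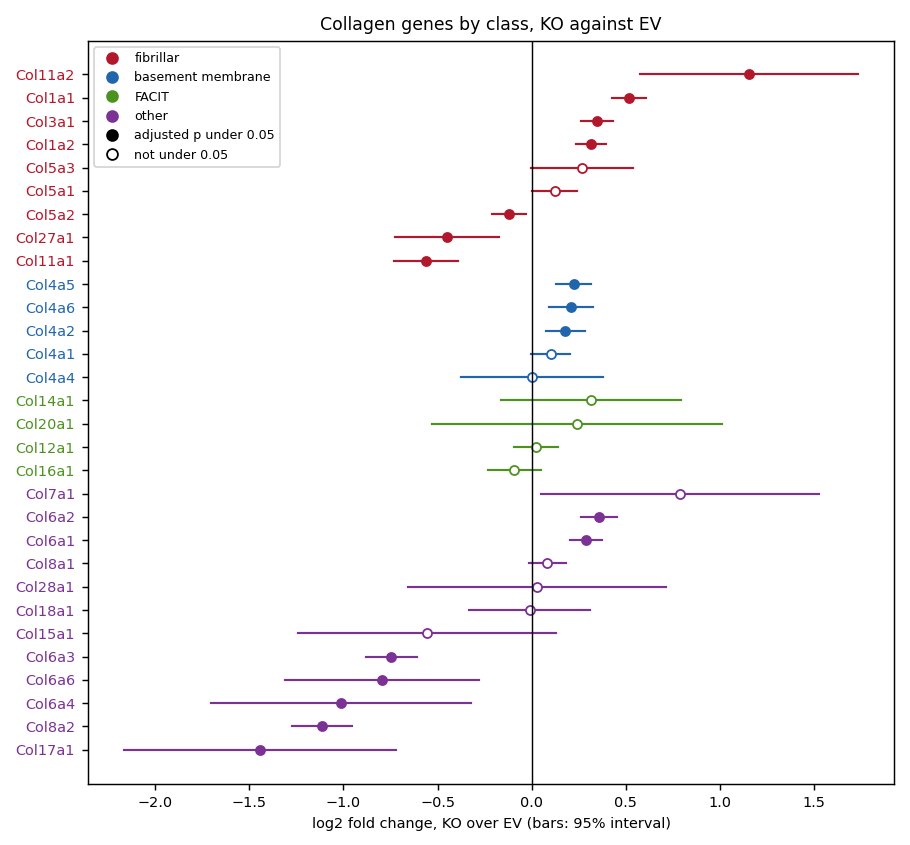
Log2 fold change of KO over EV for the 30 tested collagen genes, grouped and coloured by class, with bars for the 95% interval of edgeR's fit; filled points have an adjusted p under 0.05. Fibrillar genes run from 1.15 (Col11a2) to −0.56 (Col11a1), and Col8a2 is at −1.11; Col17a1, at −1.44, passed the filter through EV libraries alone.

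Type I collagen is the main fibril-forming protein of skin, bone and scar, and is built from chains of Col1a1 and Col1a2. Col1a1 (ENSMUSG00000001506, mm10 chr11:94936224-94953042) stood at 13714, 13494, 13790.0 and 14395 CPM in KO replicates 1 to 4, against 10322, 9005, 9888 and 9458 CPM in EV replicates 1 to 4. Every KO library was above every EV library, and the gene was 1.43-fold higher (log2 fold change 0.52, SE 0.0428, edgeR adjusted p = 3.02e-08). By mean FPKM it ranked 9 of all genes in KO and 15 in EV. Col1a2 (ENSMUSG00000029661, chr6:4504814-4541543) had 12728, 13292, 12654 and 13019.6 CPM in KO, against 10758, 10150.1, 10642 and 9992 CPM in EV. It rose 1.24-fold (log2 0.32, SE 0.0378, edgeR adjusted p = 3.9e-06), again without overlap. This call held in 18 of 19 alternatives and was lost in limma on unfiltered FPKM (adjusted p = 0.0645, range over alternatives up to that value).

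Col3a1 (ENSMUSG00000026043, chr1:45311538-45349706) encodes type III collagen, which co-assembles with type I in extensible tissues. It stood at 4957, 5246, 5087 and 5336 CPM in KO, against 4178, 3918, 4182 and 3960.2 CPM in EV. The KO libraries were all higher, by 1.27-fold (log2 0.35, SE 0.0406, edgeR adjusted p = 3.09e-06), and the call held in all 19 alternatives. Its neighbour on chromosome 1 did the opposite. Col5a2 (ENSMUSG00000026042, chr1:45374321-45503282), on the other strand with its 3′ end facing that of Col3a1, had 2651, 2809.8, 2523 and 2722 CPM in KO, against 2995, 2887, 2919 and 2837 CPM in EV. The groups did not overlap, but the difference was small (log2 −0.12, SE 0.0420, edgeR adjusted p = 0.0412). The call held in 12 of 19 alternatives. Leaving out any of EV replicates 1, 2 and 3 or of KO replicates 1, 3 and 4 ended it, with adjusted p from 0.0573 to 0.150, and so did leaving out KO replicates 2 and 3 together (0.126).

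Type V collagen sets fibril diameter by nucleating type I fibrils, and its other chains did not pass the test. Col5a1 (chr2:27886425-28039514) averaged 253 ± 18.7 CPM in KO and 233 ± 17.1 CPM in EV (SD, n = 4 each), with a 95% interval of the log2 difference from 0.000246 to 0.242 and an edgeR adjusted p of 0.135. Among the alternatives it passed when EV replicate 1 was left out (edgeR adjusted p = 0.0367) and when KO replicate 3 was (edgeR adjusted p = 0.0491). Col5a3 (chr9:20770050-20815067) had 9.34, 12.7, 9.44 and 9.89 CPM in KO, against 9.64, 8.91, 9.30 and 6.60 CPM in EV. The ranges overlapped, and the edgeR adjusted p was 0.145.

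Type XI collagen is the type V relative of cartilage, and its chains moved in opposite directions. Col11a1 (ENSMUSG00000027966, chr3:114030540-114220718) had 45.4, 44.2, 39.1 and 50.5 CPM in KO, against 77.9, 60.5, 61.1 and 65.2 CPM in EV. It fell without overlap (log2 −0.56, SE 0.0810, edgeR adjusted p = 3.58e-05) and was called in all 19 alternatives. Col11a2 (ENSMUSG00000024330, chr17:34039437-34066685) had 24, 26, 30 and 31 counts in KO, against 13, 14, 12 and 9 counts in EV. It was higher in all 4 KO libraries (log2 1.15, SE 0.276, edgeR adjusted p = 0.00422), at a level close to the filter: only 3 of the 4 EV libraries reached its minimum of 0.475 CPM. Col27a1 (chr4:63214004-63334991), a fibrillar chain also known from cartilage, averaged 4.66 ± 0.216 CPM in KO and 6.36 ± 0.888 CPM in EV (SD, n = 4 each). Its fall (log2 −0.45, SE 0.132, edgeR adjusted p = 0.0165) was lost without EV replicate 2 (adjusted p = 0.0638) in limma on filtered FPKM (0.0731 and 0.0762) and without KO replicates 2 and 3 (0.0602), with 0.0762 the highest over alternatives.

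Other cartilage genes were near absence. Col2a1, the main fibrillar chain of cartilage, had at most 3 counts in a library, and Acan, Matn1 and Hapln1 had none in any. The whole chondrocyte list summed to 5.73 to 7.54 CPM in KO and 4.16 to 6.07 CPM in EV, of which Sox9 made up 5.52 ± 0.969 CPM in KO and 2.75 ± 0.713 CPM in EV. Sox9, a transcription factor also present outside cartilage, was higher in KO (edgeR adjusted p = 4.22e-04), and Matn3 of the same list was lower. Among 6 fibroblast markers, Pdgfra was lower at 267 ± 4.56 CPM in KO and 347 ± 25.4 CPM in EV, Lum was lower, Dcn was higher, and Thy1 had at most 1 count. Their summed level was 3051 to 3526 CPM in KO and 2922 to 3311 CPM in EV. Whether these transcripts have a part in the collagen differences was not tested, and in such bulk libraries more cells of a kind and more RNA per cell cannot be told apart.

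**Figure D3:**
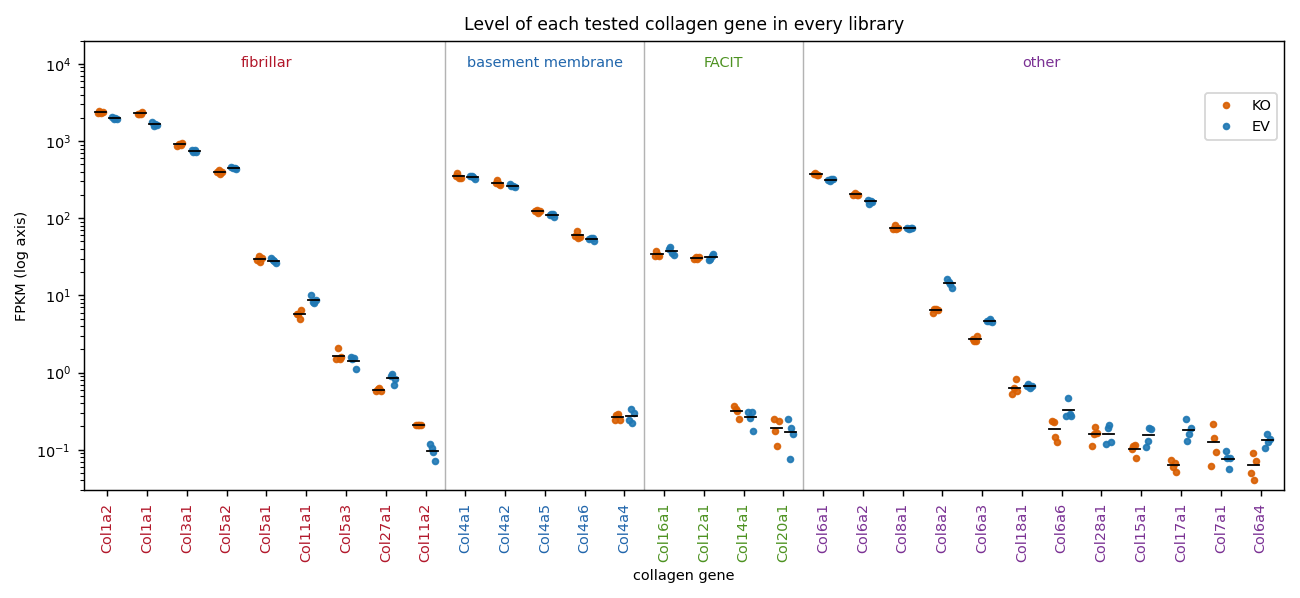
FPKM of each tested collagen gene in every library on a log axis, KO left of EV for each gene, with lines at group means, ordered by class and level. Col1a2 and Col1a1 stand highest, several FACIT and other genes lie below 1 FPKM, and Col8a2, Col6a3 and Col17a1 are lower in all KO libraries.

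Type IV collagen is made by gene pairs that lie head to head and share the space between their starts. Col4a1 (ENSMUSG00000031502, chr8:11198423-11312826) and Col4a2 (ENSMUSG00000031503, chr8:11312805-11449287) run in opposite directions and their annotated spans overlap by 22 bases. The RefSeq promoter windows (GRCm38.p6, 250 bases before to 50 after the start) overlap by 78 bases. They are shown because the genes of this pair are read from one shared stretch. Capitals mark CCAAT (or its reverse complement ATTGG) and GGGCGG (or CCGCCC), searched on both strands. Col4a1 is at chr8:11312777-11313076 on the minus strand and Col4a2 at chr8:11312555-11312854 on the plus strand.
Col4a1: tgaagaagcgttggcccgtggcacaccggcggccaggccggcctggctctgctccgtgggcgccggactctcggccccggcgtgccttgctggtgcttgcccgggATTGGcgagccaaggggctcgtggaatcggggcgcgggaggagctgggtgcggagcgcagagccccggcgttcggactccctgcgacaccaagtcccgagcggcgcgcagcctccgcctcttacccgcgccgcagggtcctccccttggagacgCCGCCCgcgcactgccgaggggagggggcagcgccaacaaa
Col4a2: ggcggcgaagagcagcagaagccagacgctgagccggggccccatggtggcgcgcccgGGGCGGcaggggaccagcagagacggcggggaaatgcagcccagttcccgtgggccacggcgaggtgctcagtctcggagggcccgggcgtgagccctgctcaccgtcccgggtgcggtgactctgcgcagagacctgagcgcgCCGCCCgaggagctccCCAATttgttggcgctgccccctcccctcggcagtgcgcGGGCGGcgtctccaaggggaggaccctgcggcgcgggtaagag

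The windows are rich in these letters: the Col4a1 window holds 74.0% G and C and the Col4a2 window 73.7%, beside a median of 52.7% over 32851 promoter windows. CCAAT stands in 37.4% of all windows and in 11 of the 26 tested collagens that have one, and GGGCGG in 35.7% of all windows and in 18 of the 26. TATAAA, searched on both strands in the same way, stands in 13.6% of all windows and in 3 of the 26. The percentages are per window, while a collagen gene counts if any of its windows holds the letters, so the units differ. These matches describe the letters and nothing more.

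Col4a1 and Col4a2, the chains of nearly every basement membrane, differed in how they compared between groups. Col4a1 stood at 2387, 2605, 2263 and 2251 CPM in KO, against 2294, 2264, 2237 and 2068 CPM in EV. These ranges overlapped, with a log2 difference between −0.00366 and 0.206 (95% interval, edgeR adjusted p = 0.151). Col4a2 had 1905, 2073, 1816 and 1791 CPM in KO, against 1768, 1668, 1684 and 1587 CPM in EV. All KO libraries were above all EV libraries (log2 0.18, SE 0.0496, edgeR adjusted p = 0.0121). That call was lost when libraries were scaled by their totals alone (adjusted p = 0.0598), in limma on FPKM (0.117 to 0.201) and without KO replicates 2 and 3 (0.0943).

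The second head-to-head pair, Col4a5 and Col4a6 on the X chromosome, makes the type IV network of other epithelial sheets and of smooth muscle, and rose together. Col4a5 (ENSMUSG00000031274, chrX:141475385-141689234) had 822, 859, 783 and 827 CPM in KO, against 705, 723, 725 and 669 CPM in EV. It was 1.17-fold higher without overlap (log2 0.22, SE 0.0444, edgeR adjusted p = 9.77e-04) and called in all 19 alternatives. Col4a6 (ENSMUSG00000031273, chrX:141165403-141474076) had 396, 459, 379 and 393 CPM in KO, against 357, 355, 367 and 329 CPM in EV. It was 1.16-fold higher (log2 0.21, SE 0.0557, edgeR adjusted p = 0.00925), a call lost in limma on FPKM (adjusted p 0.0878 to 0.163) and without KO replicates 2 and 3 (0.0559). Col4a4, a chain of the kidney filter, averaged 2.73 ± 0.259 CPM in KO and 2.72 ± 0.492 CPM in EV (SD, n = 4 each; edgeR adjusted p = 0.997). Its partner Col4a3 had 2 to 9 counts in KO and 3 to 22 in EV and was not tested.

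The FACIT collagens carry short helices interrupted by non-helical parts and bind to fibrils rather than form them. Col12a1 stood at 348, 373, 349 and 375 CPM in KO, against 326, 333, 374 and 391 CPM in EV. The log2 difference lay between −0.0963 and 0.137 (95% interval, edgeR adjusted p = 0.825). Col16a1 averaged 181 ± 14.1 CPM in KO and 193 ± 20.7 CPM in EV (SD, n = 4 each; 95% interval −0.234 to 0.0467, edgeR adjusted p = 0.332). These FACIT genes are the only ones of the class at a sizeable level, 30.8 and 34.1 FPKM in KO and 31.4 and 37.7 FPKM in EV, and a difference beyond those intervals was not seen in either. Col14a1 had 40 to 48 counts in KO and 23 to 43 in EV (edgeR adjusted p = 0.336). Col20a1 had 11 to 24 counts in KO and 7 to 19 in EV (edgeR adjusted p = 0.671), and it overlaps a noncoding transcript on the same strand with 77 to 127 counts, so its reads are uncertain. Col9a2 and Col9a3 had at most 4 counts in a library, and Col9a1, Col19a1 and Col22a1 had none.

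Type VI collagen is assembled from Col6a1, Col6a2 and one longer chain, usually that of Col6a3, and its chains parted. Col6a1 (ENSMUSG00000001119, chr10:76708792-76726168) had 1568, 1592, 1542 and 1521 CPM in KO, against 1277, 1224, 1321 and 1279 CPM in EV. It rose 1.22-fold (log2 0.29, SE 0.0407, edgeR adjusted p = 2.91e-05). Col6a2 (ENSMUSG00000020241, chr10:76595762-76623630), which lies near it on the same strand, had 1006, 1063, 1008 and 1005 CPM in KO, against 844, 742, 816 and 788 CPM in EV. It rose 1.28-fold (log2 0.36, SE 0.0461, edgeR adjusted p = 1.04e-05). Col6a3 (ENSMUSG00000048126, chr1:90765923-90843971) went the other way, at 28.0, 26.4, 26.3 and 30.5 CPM in KO, against 46.7, 46.1, 49.4 and 44.2 CPM in EV. It fell to a level 40.3% below EV (log2 −0.75, SE 0.0644, edgeR adjusted p = 5.23e-08). None of these groups overlapped, and each call held in all 19 alternatives.

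Col6a4 and Col6a6, which can stand in for the Col6a3 chain in the mouse, lie in a cluster on chromosome 9 and were also lower, at levels near the floor. Col6a4 (chr9:105989454-106096783) had 7, 14, 7 and 13 counts in KO, against 14, 26, 20 and 21 counts in EV, and only 2 of the 4 KO libraries reached the filter minimum. Its fall (log2 −1.01, SE 0.329, edgeR adjusted p = 0.0294) held in 8 of 16 alternatives. Leaving out any of EV replicates 2, 3 and 4 or of KO replicates 1 and 3 ended the call (adjusted p 0.0522 to 0.101), as did testing in DESeq2 (0.0642), without a filter (0.0514) and without KO replicates 2 and 3 (0.114). Col6a6 (chr9:105687809-105828160) had 40, 42, 30 and 27 counts in KO, against 44, 91, 54 and 49 counts in EV. Its fall (log2 −0.79, SE 0.245, edgeR adjusted p = 0.0219) was lost without EV replicate 2 (log2 −0.57, adjusted p = 0.115) and without KO replicate 3 or 4 (0.0730 and 0.0826). It was also lost in limma on unfiltered FPKM (0.107) and without KO replicates 2 and 3 (0.0970). The third gene of the cluster, Col6a5, had 1 to 4 counts in a library.

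Type VIII is a short-chain network collagen of vessel walls and of the cornea's Descemet membrane, and its Col8a2 chain showed the clearest fall in the family. Col8a2 (ENSMUSG00000056174, chr4:126286793-126314330) had 26.4, 29.7, 29.1 and 28.3 CPM in KO, against 69.8, 63.7, 60.1 and 52.2 CPM in EV. The highest KO library was well under the lowest EV library, and the gene was 53.8% lower (log2 −1.11, SE 0.0759, edgeR adjusted p = 2.51e-09) in all 19 alternatives. Col8a1 (chr16:57624258-57754737), its partner chain, stood at 377, 427, 378 and 392 CPM in KO, against 373, 361, 383 and 372 CPM in EV. Those ranges overlapped, and the log2 difference lay between −0.0163 and 0.179 (95% interval, edgeR adjusted p = 0.218).

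Among the remaining classes, Col17a1 (ENSMUSG00000025064, chr19:47646344-47692094), a transmembrane collagen that anchors epithelial cells at hemidesmosomes, had 8, 7, 9 and 7 counts in KO, against 25, 16, 19 and 22 counts in EV. It passed the filter through the EV libraries alone, so some difference was built into its selection (log2 −1.44, SE 0.344, edgeR adjusted p = 0.00414). Col7a1, the anchoring fibril chain of skin, had 11, 41, 31 and 21 counts in KO, against 16, 16, 11 and 15 counts in EV. The ranges overlapped (edgeR adjusted p = 0.111), and of 16 alternatives it passed in the 1 that left out KO replicate 1 (edgeR adjusted p = 0.0446). Col15a1 and Col18a1, whose products sit at basement membranes and release angiogenesis inhibitors, averaged 0.534 and 4.12 CPM in KO and 0.781 and 4.16 CPM in EV (edgeR adjusted p = 0.232 and 0.969). Col18a1 overlaps Slc19a1 on the opposite strand, a gene with 312 to 419 counts, and the strand setting of the counting is not given. Col28a1 had 9 to 20 counts in KO and 9 to 19 in EV (edgeR adjusted p = 0.96). Col10a1, Col13a1, Col24a1 and Col25a1 had at most 2 counts in a library, Col23a1 had at most 11 and Col26a1 had none.

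The ratio between chains of one collagen type was compared in each library, whether or not the chains are needed in a fixed proportion. A ratio of counts within a library does not depend on how libraries are scaled. Of 12 chain pairs, 9 had both chains above the filter. An exact permutation test over the 70 arrangements of the libraries, two-sided, cannot give a p below 0.02857, and 6 pairs reached it (0.04286 after Benjamini-Hochberg adjustment over 9 pairs). A pair reaches it when its KO and EV ratios do not overlap, which a single called chain can bring about. The ratios are thus not independent of the calls above, and the share of other gene pairs that separate this way was not counted.

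Col1a1 over Col1a2 was 0.972, 0.915, 0.983 and 0.997 in FPKM in KO, against 0.865, 0.800, 0.838 and 0.853 in EV. The FPKM ratio was thus higher in KO, and the log2 ratio of counts was higher by 0.20 (exact permutation p = 0.02857). The proportion of the chains in the protein was not measured. Col8a1 over Col8a2 averaged 11.8 ± 0.539 in FPKM in KO and 5.20 ± 0.669 in EV (SD, n = 4 each), higher by 1.19 on the log2 scale of counts. Col6a3 over Col6a1 averaged 0.00726 ± 0.000623 in FPKM in KO and 0.0148 ± 0.000575 in EV, a log2 difference of −1.03. Col11a1 over Col11a2 averaged 27.6 ± 2.89 in FPKM in KO and 92.9 ± 18.8 in EV, a log2 difference of −1.74 that rests on 9 to 31 counts of Col11a2. In all of these the KO and EV libraries did not overlap.

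Smaller shifts passed as well. Col5a1 over Col5a2 averaged 0.0745 ± 0.00221 in FPKM in KO and 0.0630 ± 0.00325 in EV, higher by 0.24 on the log2 scale. Col4a1 over Col4a2 averaged 1.22 ± 0.00473 in FPKM in KO and 1.29 ± 0.0265 in EV, lower by 0.077 in log2 and without overlap, although Col4a1 by itself did not pass. The pair whose ratio moved least was Col4a5 over Col4a6, at 2.06 ± 0.109 in FPKM in KO and 2.04 ± 0.0328 in EV (log2 difference 0.016, exact permutation p = 0.7714). Col6a1 over Col6a2 (1.83 ± 0.0315 in FPKM in KO and 1.92 ± 0.0734 in EV, exact permutation p = 0.1143) and Col5a3 over Col5a1 (0.0560 ± 0.00589 in KO and 0.0507 ± 0.00587 in EV, exact permutation p = 0.3714) overlapped between groups. The pairs Col4a3 and Col4a4, Col9a1 and Col9a2, and Col9a3 and Col9a2 had a chain below the filter.

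**Figure D4:**
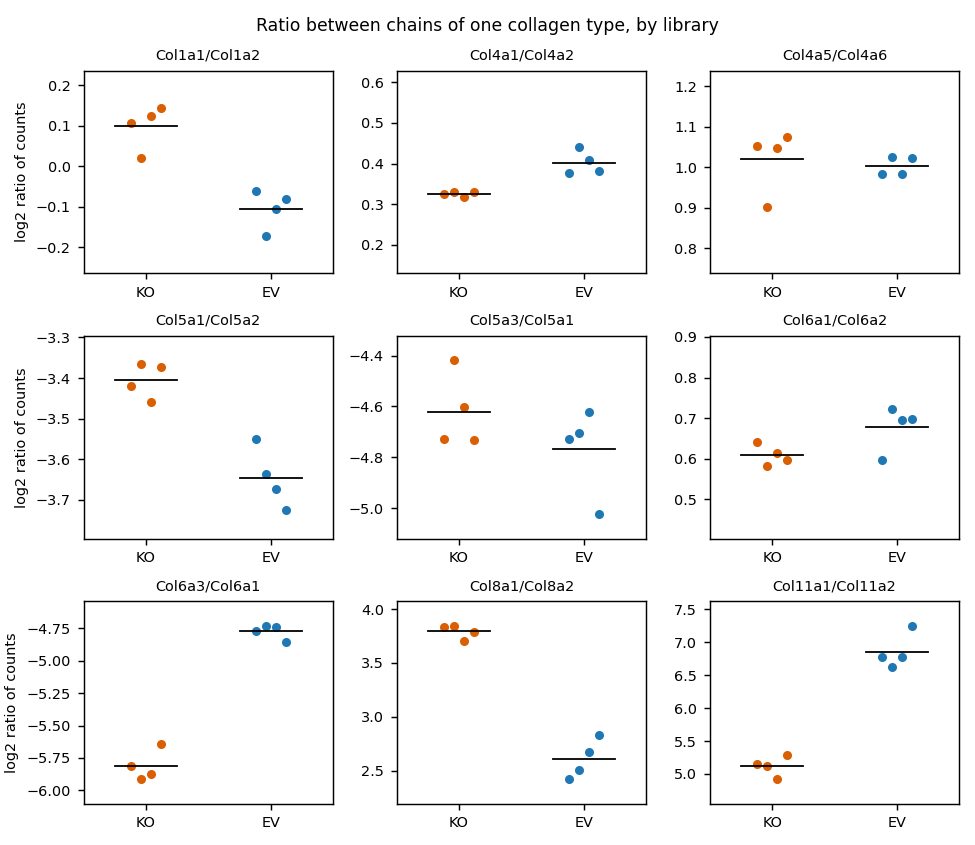
Log2 ratio of counts between partner chains in each library for the 9 chain pairs, KO left of EV, with lines at group means; each panel has its own axis, which does not start at 0. Col6a3/Col6a1, Col8a1/Col8a2 and Col11a1/Col11a2 are the most widely separated, and Col4a5/Col4a6, Col5a3/Col5a1 and Col6a1/Col6a2 overlap.

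Many collagen transcripts share a short sequence in their 3′ UTR, the match to the seed of miR-29, a microRNA family known to lower fibrillar and type IV collagens in fibroblasts. The mature sequences are shown because all of them carry one seed, which is in capitals (bases 2 to 8).
miR-29a-3p: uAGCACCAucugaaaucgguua
miR-29b-3p: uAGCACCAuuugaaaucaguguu
miR-29c-3p: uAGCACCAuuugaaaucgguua

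The 3′ UTR of the GENCODE M21 annotation (GRCm38) held the complement of this seed, TGGTGCT, in 18 of the 29 tested members with an annotated UTR, against 1768 of 11794 tested genes. The median UTR length was 971 bases in the members and 1063 bases in all tested genes. Of the 10 called members that hold the match, Col4a5, Col4a6 and Col27a1 are left out here. For the others the first match from the stop codon is shown, with the seed complement in capitals at the end.
Col1a1: gtgggaaggaatttcTGGTGCT
Col3a1: ttcaaaatgtctcaaTGGTGCT
Col4a2: gtgggaaggccacgtTGGTGCT
Col6a2: tctccatcccatctgTGGTGCT
Col5a2: cttttcttttaatgaTGGTGCT
Col11a1: ctatttggatttcgtTGGTGCT
Col6a3: cgtgacctgtcaataTGGTGCT

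These sites lie at chr11:94952523-94952544 (Col1a1), chr1:45348967-45348988 (Col3a1), chr8:11448344-11448365 (Col4a2), chr10:76596171-76596192 (Col6a2), chr1:45374966-45374987 (Col5a2), chr3:114219068-114219089 (Col11a1) and chr1:90767412-90767433 (Col6a3). Members with and without the match were found in both directions, and the difference between them was not tested. Of the 18 members that hold it, 6 were higher and 4 lower in KO, with a median log2 fold change of 0.11. Of the 11 members without it, 2 were higher (Col1a2 and Col6a1) and 4 lower (Col6a4, Col6a6, Col8a2 and Col17a1), with a median of 0.02. Col5a1 holds 4 matches, Col5a3 and Col4a5 hold 3 each, and 3 or more are found in 0.483% of tested genes.

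Another seed was searched in the same way. The complement of the seed AGCAGCA, shared by miR-322, miR-15a and miR-16, is TGCTGCT and stood in 4 of the 29 members (Col1a1, Col5a1, Col4a4 and Col12a1), against 23.5% of tested genes. That of miR-503, CGCTGCT, stood in none, against 4.33%. These shares were not tested against each other. MicroRNA levels were not analysed here.

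Genes that act on collagen were called in both directions. Over 7 lists, 29 of 59 tested genes passed (49.2%, against 26.0% of all genes tested), 14 higher and 15 lower in KO (12.6% and 13.4% of all genes). The lists were chosen with earlier results of these data known, so that share may owe something to the choice. Of 14 tested genes that modify chains in the endoplasmic reticulum, 3 were higher and 3 lower, with a median log2 fold change of 0.03. P4hb, a subunit of prolyl 4-hydroxylase, stood at 2606 ± 98.7 CPM in KO and 2137 ± 54.9 CPM in EV (SD, n = 4 each; log2 0.29, edgeR adjusted p = 3.52e-05). Plod2, which hydroxylates lysines of the telopeptides, was lower at 113 ± 4.31 CPM in KO and 145 ± 10.2 CPM in EV (log2 −0.36, edgeR adjusted p = 3.85e-05). Leprel2, a prolyl 3-hydroxylase, was lower too (log2 −0.26, edgeR adjusted p = 0.00856).

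Of 13 folding and export genes, 2 were higher and 1 lower, with a median of −0.01, and the 23.1% called is near the share over all genes. Serpinh1, which encodes the collagen chaperone HSP47, rose to 1504 ± 14.7 CPM in KO, against 1261 ± 93.9 CPM in EV (log2 0.25, edgeR adjusted p = 6.63e-04). Creb3l1, a transcription factor that activates type I collagen genes in bone, was higher (log2 0.21, edgeR adjusted p = 0.0186) although its KO and EV libraries overlapped. Sec24d, a coat protein of export vesicles, was lower (log2 −0.16, edgeR adjusted p = 0.0146).

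Outside the cell, 7 genes of propeptide removal split evenly, with 2 higher and 2 lower and a median of 0.04. Adamts2, the main amino-propeptidase of type I procollagen, was higher at 132 ± 5.95 CPM in KO and 107 ± 2.38 CPM in EV (log2 0.30, edgeR adjusted p = 7.2e-05). Its relative Adamts14 was lower at 20.2 ± 3.10 CPM in KO and 32.4 ± 1.97 CPM in EV (log2 −0.68, edgeR adjusted p = 1.53e-05). Pcolce, an enhancer of carboxy-propeptide removal, was lower (log2 −0.26, edgeR adjusted p = 0.00136). Of 6 crosslinking genes only the transglutaminase Tgm2 passed, lower in KO (log2 −0.24, edgeR adjusted p = 8.06e-04). Lox, the lysyl oxidase with the most counts, was at 1339.98 ± 46.8 CPM in KO and 1453 ± 58.3 CPM in EV (edgeR adjusted p = 0.0559).

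Genes whose products bind to collagen fibrils were also split. Of 7 fibril-binding proteoglycans, 4 were lower and 1 higher (median −0.24). Fmod was at 375 ± 27.7 CPM in KO and 488 ± 11.4 CPM in EV (log2 −0.38, edgeR adjusted p = 1.48e-05), and Bgn was lower as well (log2 −0.24, edgeR adjusted p = 0.0018). Lum was lower (log2 −0.28, edgeR adjusted p = 0.00506), with overlap between its KO and EV libraries. Of 7 receptors, 3 were lower and 2 higher (median −0.31). Itga1 and Itga11 encode integrin chains that bind collagen; Itga1 was at 28.8 ± 0.546 CPM in KO and 45.6 ± 6.71 CPM in EV, and Itga11 at 2.63 ± 0.538 CPM in KO and 6.14 ± 0.732 CPM in EV (log2 −0.66 and −1.21, edgeR adjusted p = 4.98e-06 and 1.47e-05). Mrc2, a receptor that takes up collagen for breakdown, was at 76.7 ± 4.12 CPM in KO and 121 ± 7.48 CPM in EV (log2 −0.66, edgeR adjusted p = 2.96e-08).

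Of 5 tested genes of collagen breakdown, 4 were higher and 1 lower (median 0.33). The lower gene was Mmp2, at 1348 ± 46.6 CPM in KO and 1555 ± 69.1 CPM in EV (log2 −0.21, edgeR adjusted p = 0.00175). Mmp13, a collagenase that cuts fibrillar collagen, was at 135 ± 7.35 CPM in KO and 41.1 ± 2.16 CPM in EV (log2 1.71, edgeR adjusted p = 9.55e-14). Mmp8, another collagenase, had 67 to 94 counts in KO and 20 to 51 in EV (log2 1.14, edgeR adjusted p = 0.00112), and the lysosomal protease Ctsl was higher (log2 0.33, edgeR adjusted p = 2.04e-05). Over the 7 lists together, the number higher was 6 with scaling by library totals and 6 in limma on FPKM. It was 8 without KO replicates 2 and 3, and 9 without KO replicate 1 or without KO replicate 3.

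**Figure D5:**
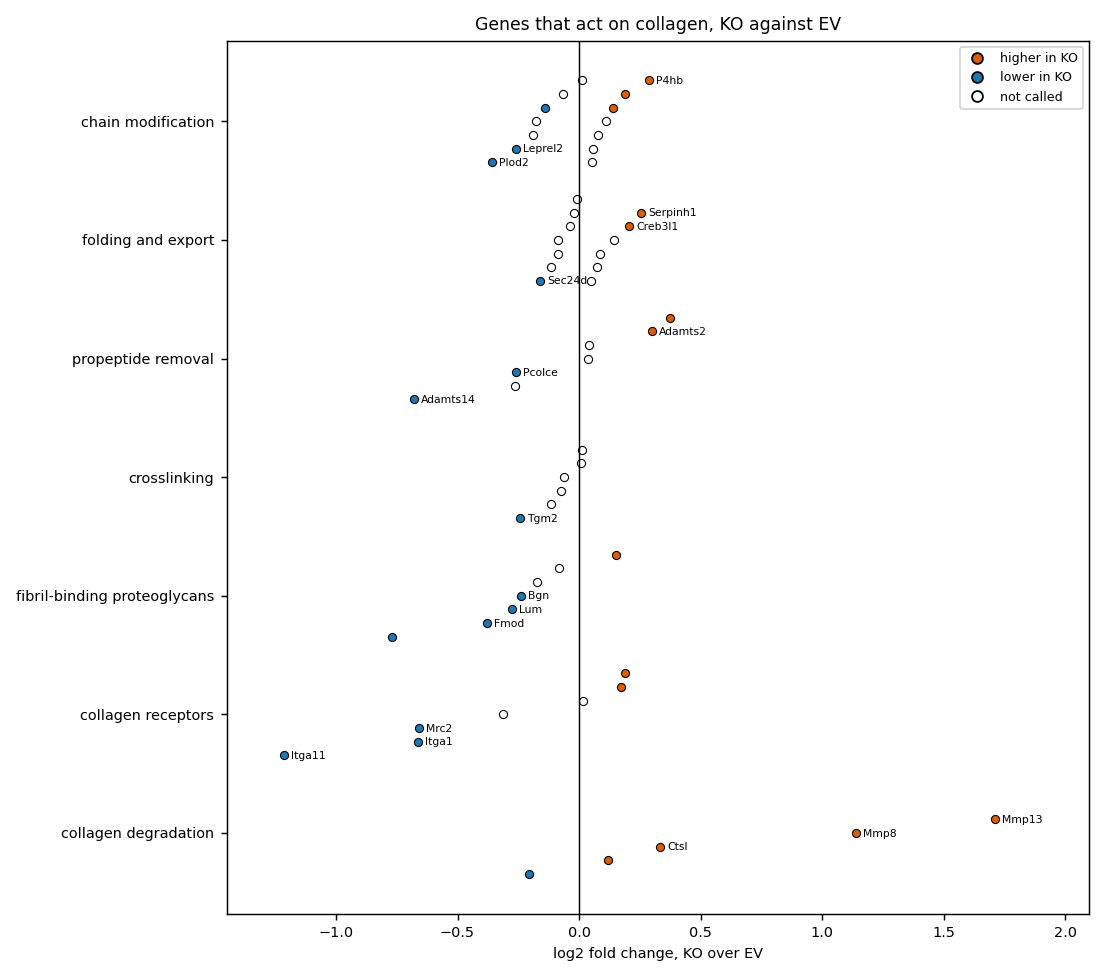
Log2 fold change of KO over EV for the tested genes of 7 lists that act on collagen, with 1 point per gene, coloured where edgeR's adjusted p is under 0.05 and named for up to 3 genes per list with the smallest adjusted p. Mmp13 at 1.71 and Itga11 at −1.21 mark the ends, and the crosslinking genes lie near 0.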

How the data were processed

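Polyadenylated RNA of 8 libraries was sequenced. Read counts per gene (mm10) were deposited by the authors as raw whole numbers, and beside them FPKM values that the authors derived from those counts; 100% of nonzero FPKM equalled counts divided by gene length and library total within 1e-06. DESeq 1.6.3 is named in the submitters' processing notes. The labels name no aligner, counter, strand setting or annotation release.

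The counts were tested in edgeR 4.0.16 (R 4.3.3) by the quasi-likelihood F test, two-sided, with TMM factors and its expression filter (minimum count 10, minimum total 15), over 12801 genes with Benjamini-Hochberg adjustment and a threshold of 0.05. CPM values use the same factors. SE is the absolute log2 fold change over the root of F. Chain ratios were compared by exact permutation over libraries. DESeq2 1.42.0, limma 3.58.1, other filters and scalings, left-out libraries and a replicate block were the alternatives. The tests were checked on simulated counts. Replicate pairs differed by more than sampling noise (chi-square over its degrees of freedom, 4.01 to 13.2), so each library counted once. Floors of 3 counts cover counting error only.

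The members, gene lists and classes were chosen with earlier results of these data known. All tested collagens are named, and from each related list up to 3 called genes with the smallest adjusted p. Lox, Mmp2 and the cell type markers named singly were chosen after their values were seen. Promoters and miRNAs come from RefSeq GRCm38.p6 (35 of 44 members had a promoter window), and UTRs from GENCODE M21.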

Additional observations from a re-analysis of the deposited data

Results flagged for a closer look

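Of 60 groups of 4 libraries, 3 held a library whose gap to its nearest neighbour, over the group's range, exceeded Dixon's 95% critical value, and chance gives this in about 1 in 20 groups. Col6a2 stood at 1063 CPM in KO replicate 2, above 1005 to 1008 CPM in the other KO libraries. Col5a3 stood at 12.73 CPM in KO replicate 2, above 9.34 to 9.89 CPM in the other KO libraries. Col6a6 stood at 3.977 CPM in EV replicate 2, above 2.32 to 2.50 CPM in the other EV libraries, and its fall in KO did not pass without that library (edgeR adjusted p = 0.115).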

How the results depend on the processing

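Of 544 results for single collagens under the alternatives, 482 kept their direction and side of the threshold, 34 lost a call, 3 gained one and 25 changed sign, none of the last for a called gene. Scaling by library totals called 1039 genes higher and 2414 lower (30.1% of calls higher, against 48.5% with TMM), and the median over all genes shifted by −0.051. Limma on FPKM called 896, 897 and 766 genes higher (pseudocounts 1 and 0.1, and 1 unfiltered). Without KO replicates 2 and 3, 880 were higher and 1094 lower. The filtered FPKM fits tested 20 collagens rather than 30, without Col6a4, Col6a6 and Col17a1, and called 4 lower in KO. Of the tested members that edgeR called lower, Col27a1 alone lost its call there. The unfiltered FPKM fit called 7 lower. Collagens lower in KO also numbered 4 without KO replicates 2 and 3. Without those 2 libraries 1 fibrillar gene was lower, 1 type IV gene higher and 3 genes of other classes lower. Type IV genes higher numbered 1 in all FPKM fits. Genes of other classes lower numbered 3 with a minimum of 1 CPM in 4 libraries and 2 in the filtered FPKM fits. Fewer genes were tested in each of these. Related genes higher numbered 6 with library totals and in the FPKM fits, and 8 without KO replicates 2 and 3. The TMM factors ran from 0.980 to 0.987 in KO and from 1.011 to 1.027 in EV, without overlap. Fits on library totals and on FPKM leave these factors out. Why the factors split by group, and why the other counts moved, was not tested.

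Leaving out each library in turn gave 1239 to 1584 genes higher and 1382 to 1775 lower; collagens 9 to 10 higher and 4 to 8 lower, fibrillar 1 to 3 lower, other classes 3 to 5 lower and related genes 9 to 13 higher. Col4a5 over Col4a6 ranged from −0.0017 to 0.055. Uncalled genes changed sign. Col4a4 was at −0.051 (library totals), −0.0060 (no filter), −0.0094 (unfiltered FPKM), −0.12 (without KO replicates 2 and 3) and −0.088 to 0.106 with a library left out. Col12a1 was at −0.031 (library totals), −0.026, −0.027 and −0.026 (FPKM fits) and −0.025 to 0.068. Col28a1 was at −0.024 (library totals), −0.0030 (unfiltered FPKM), −0.17 (without KO replicates 2 and 3) and −0.10 to 0.18. Col20a1 ranged from −0.022 to 0.47 and Col18a1 from −0.16 to 0.062.

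Same-numbered KO and EV libraries had correlations of 0.124, −0.034, 0.063 and 0.091, and libraries of unlike number −0.114 to 0.063. KO replicates 1, 3 and 4 each correlated best with the EV library of their own number, and KO replicate 2 with EV replicate 4 (0.063). No label pairs the libraries, and whether they were handled in pairs was not tested. The replicate block, which fits same-numbered libraries as pairs, gave 1879 genes higher and 1858 lower, against 1613 and 1711 without it. Collagens were 9 higher and 8 lower either way. Depth limits Col11a2, Col17a1, Col6a4 and other genes with under 50 counts a library.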
